A study of Triticum aestivum with 6 samples.

Results

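The genes described here encode the plastid pair that carries reducing power in non-green tissue, the root isozyme of ferredoxin-NADP reductase (FNR) and its partner ferredoxin-6. Members were taken by protein name, as every gene whose first recommended or submitted name began with the root isozyme of FNR or with ferredoxin-6. The names are matches to rice (root FNR) and maize (ferredoxin-6) proteins and not curated wheat names. The rule found 9 of the 83219 genes in the table, 3 for root FNR on chromosomes 5A, 5B and 5D, and 6 for ferredoxin-6 on 1A, 1B, 1D, 3A, 3B and 3D. The rule itself used no measured value, but the members were chosen with earlier results of these data known.

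Expression was measured by poly(A) RNA-seq in roots of wild-type wheat (Triticum aestivum) JW1, with 3 samples in each of 2 groups. Seedlings of both groups lost the endosperm, had nitrate for 3 days and no nitrogen for the next 2 days. Both then received abscisic acid (ABA), a hormone of drought and salt stress, at 5 µM for 3 h, with potassium chloride in place of nitrate in 0N+ABA and with 2 mM potassium nitrate in 2N+ABA. Every sample therefore had ABA, and nitrate cannot be told apart from the chloride that replaced it. No label tells whether replicates were grown separately, so the p-values reflect only how these samples varied, and that variation may be technical.

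In leaves, photosystem I reduces ferredoxin and FNR passes the electrons on to NADP. In root plastids the flow runs the other way: NADPH from the oxidative pentose phosphate pathway reduces FNR, FNR reduces a root-type ferredoxin, and the ferredoxin feeds enzymes such as nitrite reductase, glutamate synthase and sulfite reductase. Root isoforms of FNR and ferredoxin are known from maize and other plants as genes that respond to nitrate.

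Library totals lay between 16907317 and 17735564 estimated counts. 0N+ABA replicate 2 stood apart from the other libraries over all genes, and without it the genes that differed numbered 4607 in place of 1210. One label of the samples names leaf tissue, against root in the others. Of 54 genes matched as root markers (Casparian strip membrane proteins and phytosiderophore enzymes), 36 were tested and 0 rose or fell by edgeR (1 higher and 3 lower at an unadjusted p under 0.05, 1 fall by DESeq2 and 0 calls by limma-voom). Their summed level was 368 to 443 TPM (a relative abundance that corrects for gene length and library size) in 0N+ABA and 379 to 400 TPM in 2N+ABA. Of the 54, 8 were listed at 0 in every sample, and the genes for each of nicotianamine synthases 1 and 2 summed to at most 0.37 TPM in any sample. Of 144 genes matched as photosynthetic markers, 82 were tested, 0 rose and 1 fell by edgeR (DESeq2 called 0 rises and 1 fall, limma-voom 0 of each, and 3 were higher and 9 lower at an unadjusted p under 0.05). Their summed level was 259 to 388 TPM in 0N+ABA and 202 to 369 TPM in 2N+ABA, and 24 of the 144 were listed at 0 in every sample. The part of photosynthetic transcripts in the results was not tested. In bulk roots, a change in the number of cells of a type and a change in RNA per cell cannot be told apart.

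All 3 root FNR genes and the 3 ferredoxin-6 genes on chromosome group 1 rose with nitrate, by 5.07-fold to 11.9-fold. A gene was said to rise or fall at an adjusted p under 0.05 by edgeR's quasi-likelihood test, with Benjamini-Hochberg adjustment over the 53862 genes tested. Of the 9 members, 7 passed the filter on low counts, and 6 of these rose and 0 fell (0 lower at an unadjusted p under 0.05, and 0 falls by DESeq2 and limma-voom). Among all genes tested, 1.67% rose and 0.579% fell, 2.25% together. By the same test, 6615 of the 53862 genes had an unadjusted p of at most 0.0297, and 9383 of at most 0.0556. Counts at an unadjusted p under 0.05, here and for every list, are to be read beside these numbers. The median log2 fold change was 2.95 over the 7 members and -0.02 over all genes tested. The groups did not overlap in the same 6 members, with 2N+ABA higher, as was the case in 11.4% of all genes tested.

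Root FNR transfers electrons between NADPH and ferredoxin. The 5D gene, TraesCS5D02G431300, was at 39.6, 38.6 and 38.3 CPM (counts scaled to library size with edgeR's factors) in 0N+ABA replicates 1, 2 and 3, and at 456, 583 and 349 CPM in the 2N+ABA replicates. The 0N+ABA samples were nearly level, and the lowest 2N+ABA sample was far above all of them. Its log2 fold change was 3.58 (SE 0.195, adjusted p = 0.000103), or 11.9-fold.

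The 5A gene, TraesCS5A02G423000, was at 50.9, 45.2 and 53.3 CPM in 0N+ABA and 388, 467 and 301 CPM in 2N+ABA. Its groups were also separate, and the log2 fold change was 2.95 (SE 0.178, adjusted p = 0.000179). The 5B gene, TraesCS5B02G424900, was at 50.7, 48.3 and 48.2 CPM in 0N+ABA and 240, 295 and 212 CPM in 2N+ABA. It rose by the smallest factor of the 6, 5.07-fold (log2 fold change 2.34, SE 0.142, adjusted p = 0.000188).

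Ferredoxin-6 is a small iron-sulfur protein that carries one electron at a time from FNR to the enzymes that use it. TraesCS1A02G276300 on 1A was at 18.3, 19.8 and 16.4 CPM in 0N+ABA and at 146, 186 and 121 CPM in 2N+ABA. Every 2N+ABA sample was above every 0N+ABA sample, and the rise was 8.31-fold (3.06 on the log2 scale, SE 0.177, adjusted p = 0.000158).

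TraesCS1B02G285500 on 1B was at 14.8, 18.2 and 15.6 CPM in 0N+ABA and at 131, 163 and 106 CPM in 2N+ABA. Its rise of 8.22-fold was close to that of the 1A gene (log2 fold change 3.04, SE 0.180, adjusted p = 0.000171). TraesCS1D02G275800 on 1D was at 33.9, 29.4 and 28.3 CPM in 0N+ABA and at 177, 248 and 165 CPM in 2N+ABA. It rose 6.45-fold (2.69 on the log2 scale, SE 0.178, adjusted p = 0.00028), again without overlap between the groups.

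The other 3 ferredoxin-6 genes, on chromosome group 3, were barely detected. TraesCS3D02G366600 was at 0.402, 0.916 and 0.295 CPM in 0N+ABA and 0.629, 0.915 and 0.676 CPM in 2N+ABA, which overlapped (log2 fold change 0.45, SE 0.440, adjusted p = 0.683). TraesCS3B02G406100 had 1, 2 and 1 counts in 0N+ABA and 3, 6 and 2 in 2N+ABA. TraesCS3A02G373900 had 0 counts in all samples but 2N+ABA replicate 2, where it had 1. The 3A and 3B genes did not pass the filter and were not tested.

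**Figure D1:**
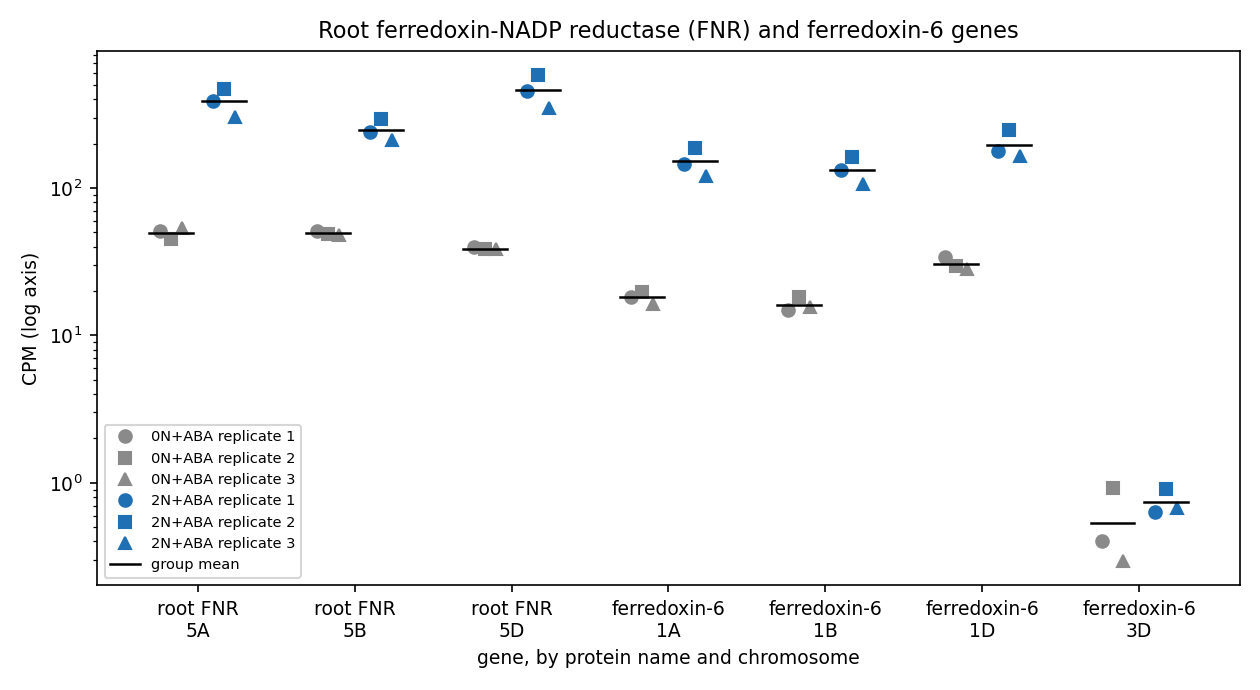
Level of the 7 tested members in each sample, in CPM on a log axis, with 0N+ABA in grey and 2N+ABA in blue, and a line at each group mean. The 3 root FNR genes and the 3 group 1 ferredoxin-6 genes stand apart between the groups, while the 3D ferredoxin-6 gene overlaps.

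Relative to their level, the 6 genes that rose varied more between the 2N+ABA samples than between the 0N+ABA samples. Between the highest and the lowest sample, the level differed by 1.03 to 1.23 times in 0N+ABA and by 1.39 to 1.67 times in 2N+ABA. Within 2N+ABA, replicate 2 was the highest and replicate 3 the lowest in all 6 genes, so the 6 are not separate observations of the spread. Summed nitrite reductase was at 481, 515 and 315 TPM and summed ferredoxin-dependent glutamate synthase at 81.9, 89.2 and 68.1 TPM in 2N+ABA replicates 1, 2 and 3, so these libraries had the same order for both. In 0N+ABA replicates 1, 2 and 3, nitrite reductase was at 31.2, 16.0 and 19.4 TPM, a wider relative spread than in 2N+ABA. Glutamate synthase was at 28.3, 29.7 and 27.2 TPM there, a narrower one. The cause of the spread was not tested. The 0N+ABA samples had no common order. 0N+ABA replicate 2 was the lowest sample for the 5A root FNR gene and the highest for the 1A and 1B ferredoxin-6 genes, and it lay far below the 2N+ABA samples in all 6.

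Per unit of length, reductase and carrier transcripts rose by nearly the same factor. The 3 root FNR genes summed to 102, 93.3 and 99.7 TPM in 0N+ABA and to 740, 865 and 595 TPM in 2N+ABA, with means of 98.2 ± 4.36 and 733 ± 135 (SD, n = 3). The 3 group 1 ferredoxin-6 genes summed to 129, 134 and 119 TPM in 0N+ABA and to 932, 1124 and 793 TPM in 2N+ABA, with means of 127 ± 7.66 and 950 ± 167. The ratios of these means were 7.47 and 7.45. By CPM, with no correction for length, the same ratios were 7.97 and 7.42. The log2 ratio of summed root FNR to summed ferredoxin-6, over all 9 genes, was -0.39 ± 0.142 in 0N+ABA and -0.38 ± 0.041 in 2N+ABA, a difference of 0.01 that is below the spread between samples.

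By TPM, the order of the 6 levels in 0N+ABA ran from ferredoxin-6 on 1A, with 57.2 ± 4.68 TPM, to root FNR on 5D, with 25.7 ± 0.655 TPM. Between them lay root FNR on 5B (38.6 ± 1.41 TPM), ferredoxin-6 on 1B (35.4 ± 3.59 TPM) and 1D (34.9 ± 3.61 TPM) and root FNR on 5A (33.9 ± 3.11 TPM), and each of these 4 was within the spread of its neighbours. In 2N+ABA the 1A ferredoxin-6 gene was again the highest, with 455 ± 79.0 TPM. Root FNR on 5D had moved from the lowest of the 6 to the next place, with 294 ± 64.4 TPM. Ferredoxin-6 on 1B (279 ± 49.3 TPM), root FNR on 5A (252 ± 46.2 TPM), ferredoxin-6 on 1D (216 ± 40.5 TPM) and root FNR on 5B (188 ± 25.1 TPM) followed, with neighbours again within their spread between samples. Within each 2N+ABA sample, however, these 4 genes had this same order. Among all 83219 genes, ranked by mean TPM, the 1A ferredoxin-6 gene was at place 3295 in 0N+ABA and 242 in 2N+ABA, and the 5D root FNR gene at 6808 and 478.

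The estimated rise of the root FNR copies ran from 5.07-fold on 5B to 11.9-fold on 5D, and their balance differed between the groups. For group 1 ferredoxin-6 the rise was 8.31-fold on 1A, 8.22-fold on 1B and 6.45-fold on 1D. No test compared fold changes between copies. Wheat is hexaploid, and the A, B and D genes of a chromosome group are here called copies from their gene IDs alone. The 5D copy made up 26.0%, 27.1% and 25.5% of the summed root FNR TPM in 0N+ABA and 40.0%, 41.3% and 38.3% in 2N+ABA. The 5B copy went the other way, with 39.6%, 40.3% and 38.1% in 0N+ABA and 25.0%, 24.8% and 27.6% in 2N+ABA. Neither set of shares overlapped between the groups, with differences of 13.7 and -13.5 percentage points. The exact two-sided permutation test gave p = 0.1 for each, the smallest value that 3 samples against 3 can give. The 5A copy held 34.5% ± 1.94 in 0N+ABA and 34.3% ± 0.567 in 2N+ABA (SD, n = 3, exact permutation p = 0.8), a difference of -0.15 points whose sign changed when some single samples were left out.

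Among the group 1 ferredoxin-6 genes the shares moved less. The 1D copy held 30.2%, 24.7% and 27.2% of the summed TPM in 0N+ABA and 21.3%, 23.3% and 23.5% in 2N+ABA, and the 1A copy held 44.7%, 45.9% and 43.9% against 48.5%, 47.6% and 47.7%. These shares did not overlap either (exact permutation p = 0.1 for each, again the smallest possible), and those of the 1B copy did (p = 0.5 by the same exact test). Over the 6 shares tested, no permutation p could pass 0.05, adjusted or not.

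The level of a ferredoxin-6 copy depended on the length used for it. The authors' counts per TPM were 2.75 times as high for the 1D gene as for the 1A gene and 1.44 times as high for the 1B gene, so the 1D gene was treated as much the longest. By CPM, which does not correct for length, the 1D copy held 47.0% ± 3.55 in 0N+ABA and 40.9% ± 1.67 in 2N+ABA and was the most abundant copy. By TPM it was the least abundant in 2N+ABA, and in 0N+ABA it lay within the spread of the 1B copy (27.4% ± 2.76 and 27.8% ± 2.32). The direction of its difference was the same in both units. Among the root FNR genes the counts per TPM differed by at most 1.19 times. The counts of these 6 genes were not whole numbers in nearly all samples (2 of 6 samples were whole for the 1B ferredoxin-6 gene and 0 of 6 for the other genes), as is usual where reads are divided among similar genes or transcripts. How they were divided is not described, so the levels of single copies are uncertain.

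**Figure D2:**
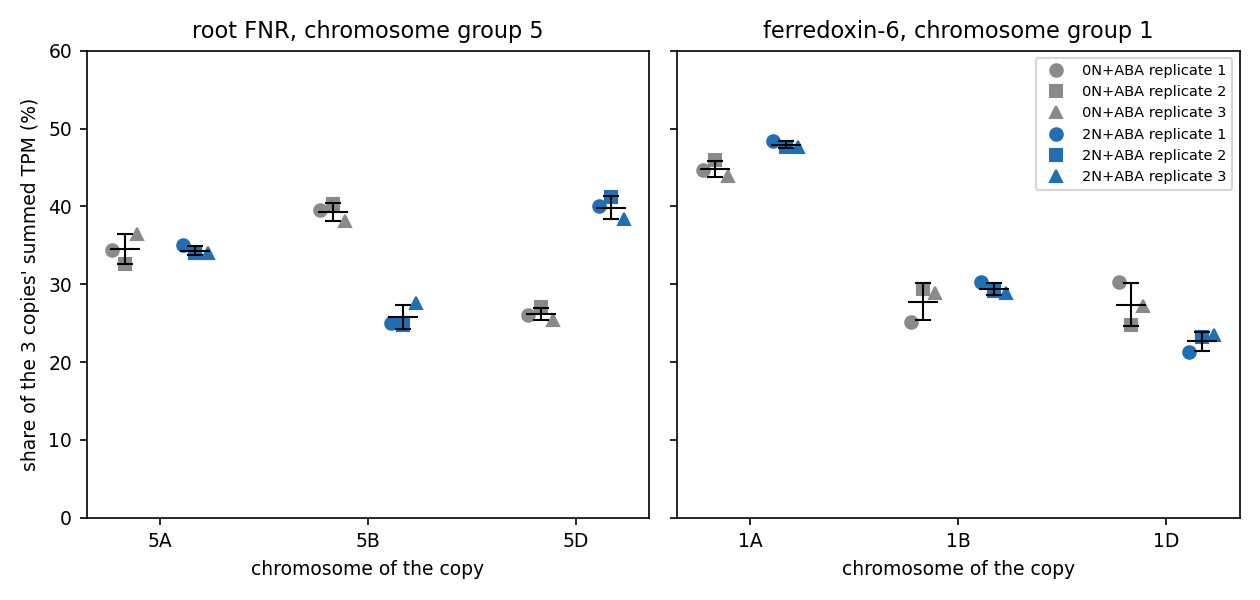
Share of each copy in the summed TPM of its 3 copies, in percent, for root FNR on chromosome group 5 and ferredoxin-6 on group 1, with points for samples and bars for the mean and SD. The 5D root FNR copy stands at about 26.2% in 0N+ABA and 39.9% in 2N+ABA, and the 5B copy at 39.3% and 25.8%.

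No gene for another isoform of either protein passed the test. Of 9 genes for other FNR isozymes, 4 were tested, and 0 rose or fell by edgeR (0 at an unadjusted p under 0.05, and 0 by DESeq2 and limma-voom). The 3 genes for the embryo isozyme, a type described in rice, summed to 9.98 ± 0.215 TPM in 0N+ABA and 10.03 ± 0.828 TPM in 2N+ABA, with log2 fold changes between -0.14 and 0.28. For the 2D gene, TraesCS2D02G253400, the change was -0.14 (SE 0.160, adjusted p = 0.73). The 6 genes for the leaf isozymes, which act in photosynthesis, were near the limit of detection, with 0.363 and 0.873 TPM in 0N+ABA for isozymes 1 and 2. Root FNR thus held 89.7% ± 0.254 of all FNR transcripts by TPM in 0N+ABA and 98.5% ± 0.302 in 2N+ABA.

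Of 17 genes for other plastid ferredoxins, 14 were tested, with 0 rises and 0 falls by edgeR (also 0 by DESeq2 and limma-voom, with 1 lower and 0 higher at an unadjusted p under 0.05) and a median log2 fold change of -0.09. Ferredoxin-3, a non-photosynthetic type in maize, was as abundant as ferredoxin-6 in 0N+ABA, with 133 ± 31.2 TPM over 5 genes against 128 ± 8.18 TPM over 6. In 2N+ABA ferredoxin-3 was at 128 ± 22.6 TPM and ferredoxin-6 at 951 ± 167 TPM. The 6 genes named ferredoxin, a name of the photosynthetic type, were at 70.0 ± 4.44 and 63.0 ± 12.4 TPM. Ferredoxin-6 made up 35.3%, 43.0% and 36.8% of all plastid ferredoxin transcripts in 0N+ABA and 82.2%, 84.0% and 82.5% in 2N+ABA.

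**Figure D3:**
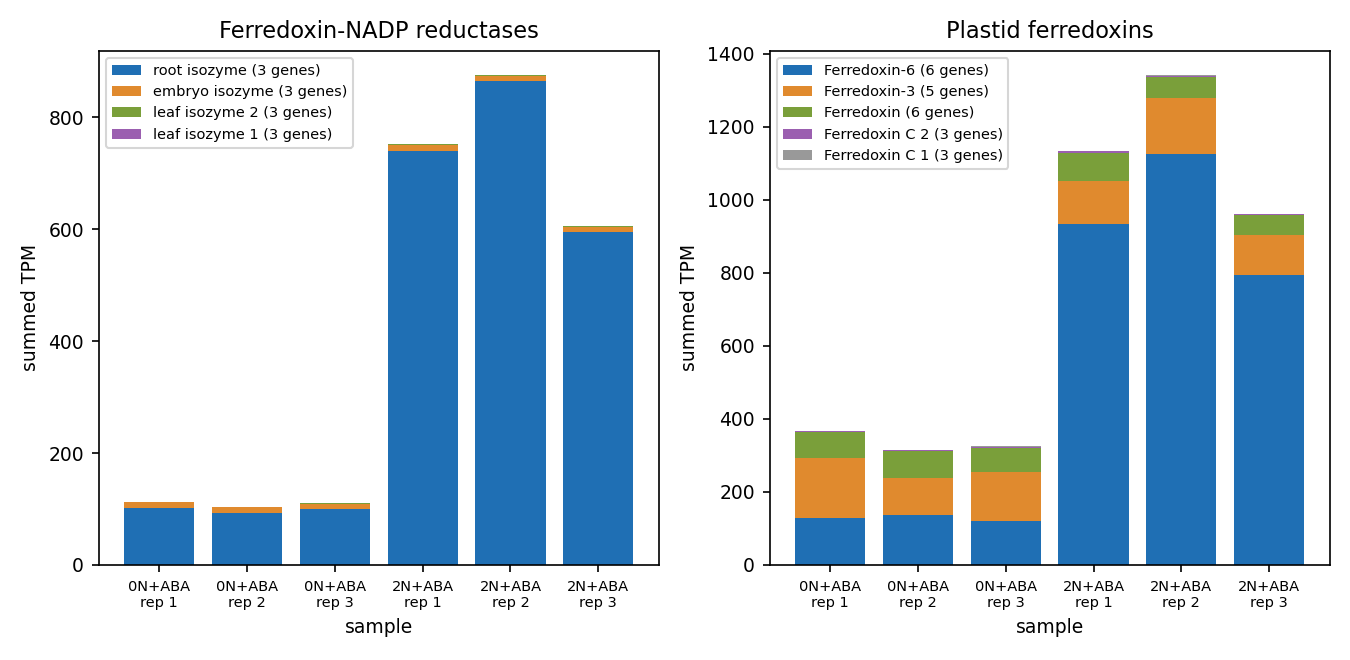
Summed TPM of each FNR isozyme (left) and each plastid ferredoxin (right) in every sample, stacked, with both axes starting at 0. Root FNR and ferredoxin-6 account for nearly all of the difference between the groups, and ferredoxin-3 is at 133 TPM in 0N+ABA and 128 TPM in 2N+ABA.

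Each root-type gene was also set beside a gene of another isoform on the same subgenome, a pairing chosen after the values were seen and given with no test. The log2 ratio of root FNR to the embryo isozyme, by CPM, was higher in 2N+ABA by 2.85 for the A copies, 2.06 for the B copies and 3.70 for the D copies. The log2 ratio of group 1 ferredoxin-6 to the most abundant ferredoxin-3 gene of the subgenome was higher by 3.08, 2.93 and 2.67 for the A, B and D copies.

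Enzymes that take electrons from ferredoxin did not move as one group, and which ferredoxin serves each of them was not measured. Nitrite reductase, which reduces nitrite to ammonium, rose in all 3 genes, with log2 fold changes between 4.19 and 4.62, and its summed level went from 22.2 ± 7.98 to 437 ± 107 TPM. Ferredoxin-dependent glutamate synthase, which builds glutamate from the product of ammonium assimilation, rose in all 3 genes by 1.49 to 1.60 on the log2 scale. Sulfite reductase, which takes electrons from ferredoxin to make sulfide, gave 0 rises and 0 falls among 3 genes by edgeR. It also gave 0 at an unadjusted p under 0.05, and 0 by DESeq2 and limma-voom. Its summed level was 129 ± 26.0 TPM in 0N+ABA and 134 ± 25.9 TPM in 2N+ABA. Its log2 fold changes were 0.16 for TraesCS1A02G323400 (SE 0.171, adjusted p = 0.71), 0.10 for TraesCS1B02G336300 (SE 0.172, adjusted p = 0.834) and 0.11 for TraesCS1D02G324200 (SE 0.253, adjusted p = 0.878).

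Ferredoxin-thioredoxin reductase passes electrons from ferredoxin to regulatory thioredoxins. One of its 4 genes rose, TraesCS2B02G390900 for the variable chain, from 3.13 ± 0.226 to 5.42 ± 0.509 CPM (SD, n = 3, adjusted p = 0.0375 by edgeR). Its adjusted p was 0.0207 without 0N+ABA replicate 2 and 0.0882 to 0.146 without each of the other samples, by the same test. The other variable chain gene, TraesCS2D02G370000, did not pass (log2 fold change 0.97, SE 0.276, adjusted p = 0.123 by edgeR). The catalytic chain genes had log2 fold changes of -0.089 and -0.07. At an unadjusted p under 0.05, 2 of the 4 genes were higher and 0 lower. Heme oxygenase 1, which opens the heme ring on the way to phytochrome's pigment, had 0 calls among 7 tested genes by edgeR (0 at an unadjusted p under 0.05, and 0 by DESeq2 and limma-voom). Stearoyl and acyl carrier protein desaturases, which put double bonds into fatty acids, had 0 calls among 10 tested genes by edgeR and limma-voom and DESeq2 called 1 rise (at an unadjusted p under 0.05, 1 was higher and 1 lower). TraesCS3B02G463000, a stearoyl desaturase gene, was at 47.0 ± 1.38 and 73.2 ± 16.2 CPM (adjusted p = 0.0803), and 1 desaturase gene rose without 0N+ABA replicate 2.

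On the supply side, the 6 genes that rose among 24 tested for the oxidative pentose phosphate steps all encode plastid dehydrogenases, which make the NADPH that FNR uses. They are 3 of 3 genes for 6-phosphogluconate dehydrogenase 2 and 3 of 3 for glucose-6-phosphate dehydrogenase 2. Their summed levels went from 24.5 ± 2.69 to 327 ± 35.4 TPM and from 21.0 ± 2.73 to 150 ± 26.8 TPM. Genes matched to cytosolic forms of the same enzymes gave 0 calls by edgeR, DESeq2 and limma-voom (0 higher and 1 lower at an unadjusted p under 0.05). The 7 genes for 6-phosphogluconate dehydrogenase 1 summed to 318 ± 7.65 TPM in 0N+ABA and 313 ± 11.4 TPM in 2N+ABA. The 4 genes for the cytoplasmic glucose-6-phosphate dehydrogenase isoform summed to 199 ± 7.41 and 176 ± 10.8 TPM, and the gene for the cytoplasmic isoform 6 was at 5.40 ± 0.922 and 4.81 ± 0.513 TPM. Not every plastid gene of these steps rose. Those named 6-phosphogluconolactonase 3 and 4, chloroplastic (2 genes each), gave 0 calls by the same 3 methods. Their log2 fold changes lay between 0.073 and 0.275. The 3 genes named chloroplastic glucose-6-phosphate dehydrogenase without a number were not tested, with sums of 0.19 and 0.14 TPM. Of all 24, 0 fell by edgeR, DESeq2 and limma-voom, and 1 was lower at an unadjusted p under 0.05.

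Among 22 tested genes for the non-oxidative pentose phosphate enzymes, 3 rose and 0 fell by edgeR (6 higher against 1 lower at an unadjusted p under 0.05; DESeq2 and limma-voom each gave 0 falls). All 3 encode transketolase, which returns pentose phosphates to the pathway: TraesCSU02G063400, TraesCS7A02G071100 and TraesCS7D02G066500, with log2 fold changes of 1.30, 1.30 and 0.99 (adjusted p = 0.00435, 0.00394 and 0.00687). The count was 5 by DESeq2 and 6 without 0N+ABA replicate 2. It was 2 without 2N+ABA replicate 1, where TraesCS7D02G066500 did not pass (adjusted p = 0.059 by edgeR), and 3 without each of the other samples. Of 25 tested genes for iron-sulfur cluster assembly in plastids or mitochondria, 1 rose and 0 fell by edgeR (7 higher against 0 lower at an unadjusted p under 0.05; DESeq2 and limma-voom each gave 0 falls). Ferredoxin gets its cluster from the plastid machinery, but the list also took in 3 genes named NifU-like protein 4, mitochondrial, and 6 for iron-sulfur cluster assembly protein 1, a scaffold that is mitochondrial in Arabidopsis.

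The gene that rose, TraesCS1A02G406300 on 1A, is one of those for assembly protein 1, not one named as plastid, and went from 4.14 ± 1.02 to 11.1 ± 1.77 CPM (SD, n = 3, adjusted p = 0.0132 by edgeR). Its likely copies TraesCS1B02G436500 and TraesCS1D02G414700, named by their chromosome group alone, had log2 fold changes of 1.28 and 1.02 and did not pass (adjusted p = 0.0845 and 0.101). This list counted 3 rises without 0N+ABA replicate 2 and by DESeq2, and 0 without 0N+ABA replicate 3 or without 2N+ABA replicate 1. The mitochondrial adrenodoxin system, a related electron chain outside the plastid, had 0 calls among 9 tested genes by edgeR (also 0 by DESeq2 and limma-voom, with 1 lower and 0 higher at an unadjusted p under 0.05). Proteins that hold FNR at plastid membranes had 0 calls among 3 tested genes by edgeR (0 at an unadjusted p under 0.05, and 0 by DESeq2 and limma-voom). All were low: the 6 genes of this list summed to 3.04 ± 0.393 TPM in 0N+ABA and 3.17 ± 0.554 TPM in 2N+ABA. The 3 genes named protein TIC 62 among them were not tested.

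**Figure D4:**
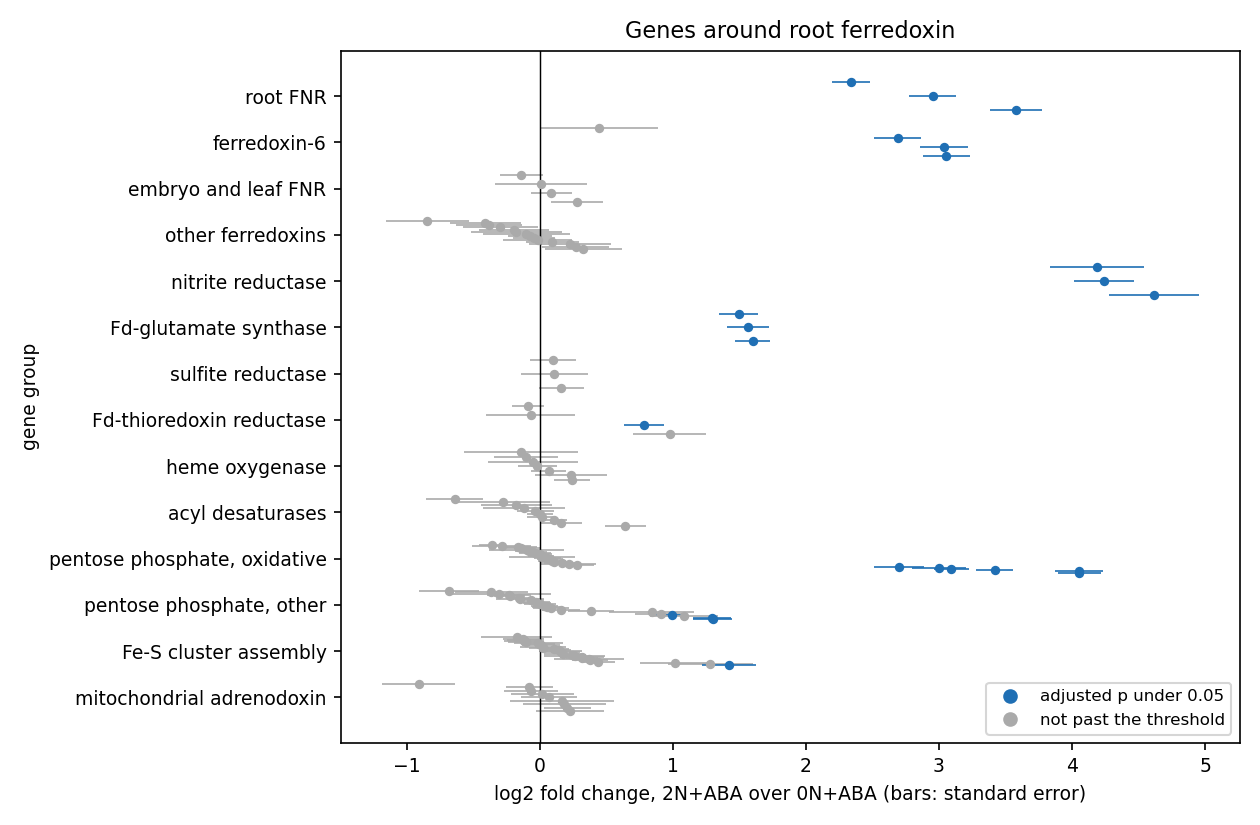
Log2 fold change of every tested gene in each group, with its standard error, in blue where the adjusted p by edgeR was under 0.05. Root FNR and group 1 ferredoxin-6 lie between 2.34 and 3.58, nitrite reductase between 4.19 and 4.62 and glutamate synthase between 1.49 and 1.60, while sulfite reductase and the other FNR and ferredoxin genes did not pass.

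Across the 13 lists around the members, 131 genes were tested, of which 17 rose and 0 fell by edgeR (28 higher against 5 lower at an unadjusted p under 0.05; DESeq2 and limma-voom each gave 0 falls). Among all genes tested, 1.67% rose and 0.579% fell. The 17 included 3 genes for nitrite reductase, 3 for glutamate synthase and 6 for the plastid pentose phosphate dehydrogenases. The lists were chosen with earlier results of these data known. The median log2 fold change over the 131 genes was 0.07.

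The genes whose profile over the 6 samples was most like that of the members were sought among 39792 genes with a described protein and a mean of at least 1 CPM. Likeness was the root mean square difference of centred log2(CPM + 0.5) values, where a smaller value is a closer profile. For summed root FNR, the closest was TraesCS2A02G067800, a plastid glucose-6-phosphate dehydrogenase 2 gene, at 0.078. A second gene for that enzyme, TraesCS2B02G080000, was at 0.113. TraesCS7D02G443500, named as a carbonic anhydrase, was at 0.135, and TraesCS6D02G193200, for the nitrate transporter partner NAR2.1, at 0.149. TraesCS7A02G435000, named as tyrosine-sulfated glycopeptide receptor 1, was at 0.090, but it had only 0.251 CPM in 0N+ABA, where the added 0.5 compresses its log2 fold change of 4.58.

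For summed ferredoxin-6 the same glucose-6-phosphate dehydrogenase and receptor genes were closest, at 0.122 and 0.159. Next came TraesCS7D02G299500, a plastid monodehydroascorbate reductase 5 gene that went from 42.7 ± 1.71 to 262 ± 30.3 CPM, at 0.174. The glucose-6-phosphate dehydrogenase 2 genes on 2B and 2D followed, at 0.183 and 0.186. These values describe 6 samples in 2 groups, so any gene with a similar rise and a similar order within 2N+ABA comes out as close.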

How the data were processed

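For each gene and sample the authors deposited an estimated count, not normalized, and a TPM value, per the file headers. The submitters' processing notes name HISAT and Bowtie2, with neither a version nor a role. The counting tool, genome build, annotation and strand setting are not stated in them, in the labels or in the file. Counts were whole in 55.19% to 56.28% of values per sample, within 1e-06. The labels name no molecular identifiers. Each SD is over the samples of a group, and each standard error is from the fit over all 6 samples. Another 2 columns, with means of other groups, were not used. Of the gene IDs, 0 matched the IWGSC CS RefSeq v2.1 table at hand, so chromosomes come from the IDs and no coordinates or sequences are given.

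The rounded counts went into edgeR 4.0.16 under R 4.3.3 (filterByExpr with a minimum count of 10, TMM factors of 0.953 to 1.033, glmQLFit and glmQLFTest, all 6 samples, no covariate), with Benjamini-Hochberg adjustment over 53862 genes. The genes tested held 99.61% of the counts. Standard errors came from the F statistic. The script was tested on simulated data. DESeq2 1.42.0, limma-voom (limma 3.58.1), limma on log2(TPM + 1) and log2(TPM + 0.1), other scaling, no filter, a replicate block and leaving out each sample were the alternatives. Levels of different genes are compared by TPM. Named genes are all members, up to 3 genes of smallest p per list, and the 5 closest profiles; other genes that rose are counted, and the summed levels by protein name were chosen after the values were seen. Members and lists were chosen with earlier results of these data known.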

Additional observations from a re-analysis of the deposited data

How the results depend on the processing

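In all 14 alternatives, 6 members rose and 0 fell, and each of the 6 genes kept its direction and its call. The log2 fold changes lay between 2.20 and 2.45 for the 5B root FNR gene (TraesCS5B02G424900), the smallest, and between 3.38 and 3.74 for the 5D gene (TraesCS5D02G431300), the largest. The highest adjusted p of any of the 6 was 0.00424, for TraesCS5A02G423000 with the replicate block in edgeR. TraesCS3D02G366600 was not called in any alternative (log2 fold changes 0.16 to 1.07). The number of genes called overall did depend on the processing: 1210 as reported, 2193 by DESeq2, 723 with the replicate block, and 283 to 4607 when single samples were left out, the highest without 0N+ABA replicate 2. The cause was not tested. Samples with the same number did not deviate together (correlations 0.085, -0.238 and -0.225), so the numbers were not taken as pairs, and the block changed no member's call. The share of the 5A root FNR copy, -0.15 points, ran from -1.096 to 0.837 when single samples were left out, so its direction is not determined. The other copy shares and the ratio of reductase to carrier kept their direction or stayed within the spread between samples. Genes around the members that rose numbered 17 as reported, 22 by DESeq2 and 14 to 23 without single samples. Depth limits the chromosome group 3 ferredoxin-6 genes, which had at most 16 counts in a library.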
